A study of Homo sapiens with 12 samples.

Results

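DNA replication origin and fork genes comprised 44 genes: those that mark and license origins, the MCM2-7 helicase and the factors that start it, the replicative polymerases with their clamp and clamp loader, and the proteins that finish and package the new strands. A gene was taken when the array's annotation gave a probe set that single symbol, and its value was the mean of such probe sets. All 44 were measured, on 65 probe sets, among 11963 genes in all. The cells were RCC4, a long-used human line of clear cell renal carcinoma origin, kept in 1 medium and collected 72 h after siRNA transfection. There were 4 groups with 3 biological replicates each. The control group, siNT, received siRNA without a target, siMESH1 received 1 siRNA sequence for MESH1, siATF4 received a siRNA pool for ATF4, and siMESH1+siATF4 received both. MESH1, encoded by HDDC3, is an NADPH phosphatase, and ATF4 is the transcription factor of the integrated stress response. The siMESH1 group rests on 1 siRNA sequence, so an effect of that sequence on other transcripts cannot be told apart from loss of MESH1. Nor can an effect of the ATF4 pool on other transcripts be told apart from loss of ATF4. The authors regarded genes changed by siATF4 alone as off-target. They left such genes out when asking which changes after MESH1 silencing were mediated by ATF4. The deposited values are log2 signals minus the siNT mean of the same probe set, and they hold no absolute level, so the labelled cell type could not be checked by the level of its markers.

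A human cell copies its genome once per division. In G1 the origin recognition complex (ORC), CDC6 and CDT1 load the MCM2-7 ring onto DNA, and geminin (GMNN) later blocks CDT1. At the start of S phase the kinase CDC7 with its activator DBF4, together with MCM10, CDC45 and the GINS complex, turns the ring into an active helicase. Polymerase alpha-primase lays primers, polymerases delta and epsilon extend them, RFC loads the PCNA clamp, RPA covers single strands, FEN1 and LIG1 join Okazaki fragments, and CAF-1 places histones on the new DNA. Many of these genes are known to be transcribed in waves with the cell cycle under E2F factors, while others are made throughout it. In RNA from a whole culture, fewer cells in S phase and less RNA per cell cannot be told apart.

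Promoter sequence was looked at because so many of these genes moved together. RefSeq windows on GRCh38.p14, from 250 bases before to 50 after an annotated start, were at hand for 39 of the 44 genes, 49 windows in all. None was at hand for MCM4, MCM5, POLD3, RPA2 and RPA3. The E2F letters searched were TTTCCCGC, TTTGGCGC, TTTCGCGC and TTTGCCGC on both strands. A match stood in a window of 19 of the 39 genes (48.7%), against 6.08% of the 9563 genes on the array with a window and 3.99% of all genes in the table. The letters CCAAT, on both strands, stood in 22 of 39 (56.4%) against 44.2% of the array's genes, and TTTGAA, the core of the element known as CHR, in 2 of 39 (5.13%) against 15.6%. Of the 26 E2F matches, 20 began within 100 bases before to 50 bases after the start. The 4 windows here are from genes with a match, each of a different role, written 5′ to 3′ along the gene with the E2F letters in capitals.
CDC6, licensing factor, chr17:40287629-40287928, plus strand: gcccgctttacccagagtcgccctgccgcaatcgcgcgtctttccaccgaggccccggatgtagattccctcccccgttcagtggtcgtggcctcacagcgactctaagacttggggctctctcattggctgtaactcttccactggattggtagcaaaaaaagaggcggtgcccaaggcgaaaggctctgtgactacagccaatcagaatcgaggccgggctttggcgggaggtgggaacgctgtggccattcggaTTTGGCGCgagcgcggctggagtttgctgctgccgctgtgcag
MCM6, helicase subunit, chr2:135876394-135876693, minus strand: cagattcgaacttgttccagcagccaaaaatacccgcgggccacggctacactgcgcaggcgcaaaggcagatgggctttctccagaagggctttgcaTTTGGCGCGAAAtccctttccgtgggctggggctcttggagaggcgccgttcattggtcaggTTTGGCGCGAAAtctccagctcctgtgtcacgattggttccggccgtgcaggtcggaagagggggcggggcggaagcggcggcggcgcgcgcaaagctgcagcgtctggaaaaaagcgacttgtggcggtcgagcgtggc
GINS2, helicase activation, chr16:85688905-85689204, minus strand: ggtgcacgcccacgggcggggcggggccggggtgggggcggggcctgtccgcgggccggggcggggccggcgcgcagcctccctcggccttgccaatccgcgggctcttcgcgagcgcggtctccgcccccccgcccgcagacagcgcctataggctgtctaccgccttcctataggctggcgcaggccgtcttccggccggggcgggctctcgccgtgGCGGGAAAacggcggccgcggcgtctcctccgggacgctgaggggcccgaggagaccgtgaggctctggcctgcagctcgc
PCNA, sliding clamp, chr20:5126573-5126872, minus strand: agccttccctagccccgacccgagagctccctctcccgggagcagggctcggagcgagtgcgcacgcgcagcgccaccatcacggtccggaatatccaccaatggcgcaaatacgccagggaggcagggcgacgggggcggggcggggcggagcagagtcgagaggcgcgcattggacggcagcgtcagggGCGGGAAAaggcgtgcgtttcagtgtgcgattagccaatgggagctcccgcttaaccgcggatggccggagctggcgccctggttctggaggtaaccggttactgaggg

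MCM6 held 4 matches in 2 overlapping pairs, in each of which TTTGGCGC on the gene's strand shares its last bases with GCGCGAAA, a match on the other strand. MCM10 and TOP2A, with the lowest values of all 44 in siMESH1+siATF4, had no E2F match in their windows. These windows are shown with the CCAAT letters, and for TOP2A also the CHR letters, in capitals.
MCM10, helicase activation, chr10:13161308-13161607, plus strand: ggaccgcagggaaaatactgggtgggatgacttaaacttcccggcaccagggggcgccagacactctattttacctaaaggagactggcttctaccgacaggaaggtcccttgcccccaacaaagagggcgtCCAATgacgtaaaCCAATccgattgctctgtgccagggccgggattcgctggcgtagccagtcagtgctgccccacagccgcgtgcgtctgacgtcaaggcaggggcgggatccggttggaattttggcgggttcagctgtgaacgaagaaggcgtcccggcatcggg
TOP2A, topoisomerase, chr17:40417847-40418146, minus strand: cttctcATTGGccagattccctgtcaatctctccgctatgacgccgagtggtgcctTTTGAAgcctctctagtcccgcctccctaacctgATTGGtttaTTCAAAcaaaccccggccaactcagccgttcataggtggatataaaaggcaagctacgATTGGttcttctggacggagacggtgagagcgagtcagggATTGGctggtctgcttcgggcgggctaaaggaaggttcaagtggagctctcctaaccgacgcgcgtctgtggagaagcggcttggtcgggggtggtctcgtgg

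MCM10 had 2 CCAAT matches, both on the gene's strand. TOP2A had 4, all as ATTGG, beside 2 CHR matches. TOP2A and DBF4 were the 2 genes of the 39 with CHR letters in a window. Among the 36 genes called lower in siMESH1 (the rule for a call follows with the array values) 32 had a window, and 18 of those held an E2F match. Of the 7 with a window that were not called, ORC3 was the 1 with a match. A match is a description of letters, not a bound site, and no match says only that these letters are not in this window.

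**Figure D1:**
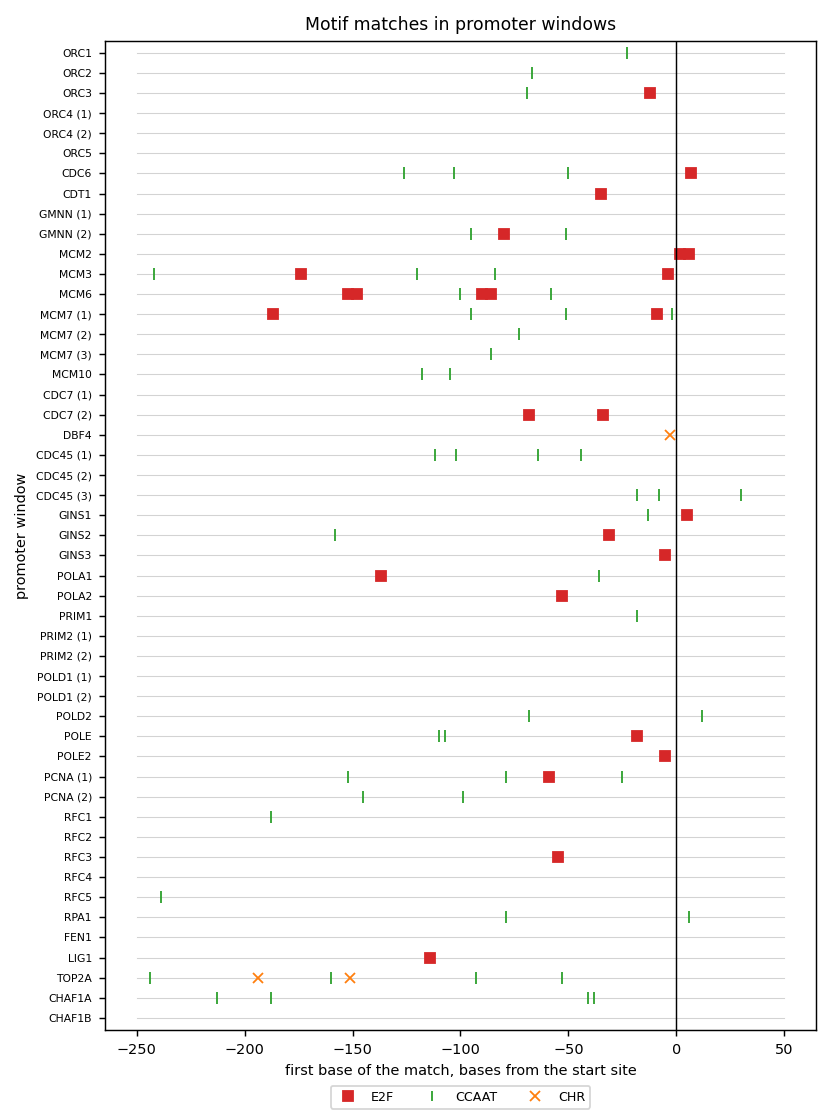
Position of each motif match in the 49 RefSeq promoter windows of 39 replication genes, 1 row per window (a number in brackets tells windows of the same gene apart). The x axis gives the first base of the match in bases from the annotated start (0 is the first transcribed base). Squares mark E2F letters, bars CCAAT and crosses the CHR letters, and 20 of 26 squares lie from 100 bases before to 50 after the start.

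Several values over whole arrays moved with the groups. Array medians lay between -0.0086 and 0.031. The mean of 11 housekeeping genes was -0.33, -0.15 and -0.22 in siMESH1, siATF4 and siMESH1+siATF4, below every siNT array (-0.021 to 0.019). Of these genes 3, 2 and 1 were themselves called lower in the same order (5.37%, 4.03% and 5.25% of all genes were). Their median changes were -0.21, -0.043 and -0.092, and their lowest -1.17, -0.61 and -0.94. The mean of 10 of 12 listed renal carcinoma markers was -0.22, 0.22 and 0.19 in the same order, outside the siNT arrays (-0.025 to 0.049). Median changes of the renal markers were -0.0595, 0.195 and 0.169, and the lowest in siMESH1 was -1.61. The mean of 10 of 12 leukocyte and endothelial markers was 0.0097, 0.047 and 0.0010, within the siNT arrays (-0.069 to 0.051). The 3′ minus 5′ difference of ACTB, a sign of RNA quality, was -0.11, -0.29 and -0.30, and every siATF4 and siMESH1+siATF4 array was below the siNT arrays (-0.063 to 0.062). GAPDH did not repeat this. Its difference was 0.078, -0.090 and -0.022 (siNT arrays -0.023 to 0.019), with siMESH1+siATF4 arrays on both sides of siNT. The mean of the hybridisation spike-ins was 0.15 to 0.31 on the siATF4 arrays, above siNT (-0.039 to 0.066). That of the poly-A spike-ins was 0.39 to 0.42 in siMESH1+siATF4, also above siNT (-0.34 to 0.23). Between 3 and 3 arrays an exact two-sided permutation test cannot give a p below 0.1, and the part of these values in the results was not tested. ATF4 itself fell by 2.31 in siATF4 and by 2.32 in siMESH1+siATF4, and its value in siMESH1 was -0.028. HDDC3 had 0 probe sets with that symbol, so its knockdown was not checked here.

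The first question was whether silencing of MESH1, of ATF4 or of both moved the replication genes. In siMESH1 36 of the 44 genes were lower than in siNT and 0 were higher. The call required a limma p below 0.05 after Benjamini-Hochberg adjustment over all genes and a log2 change of 0.5 or more in size, which is 1.41-fold. By that rule 5.37% of all genes were lower and 2.82% higher. The median change of the 44 genes was -1.07, or 2.10-fold, and that of all genes 0.028. In siATF4 34 were lower and 0 higher (4.03% of all genes were lower and 2.49% higher), with a median of -0.85 against 0.020. In siMESH1+siATF4 35 were lower and 0 higher (5.25% of all genes were lower and 4.40% higher), with a median of -1.12 against 0.013. These 3 comparisons share the siNT arrays.

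The same 34 genes were lower in all 3 silenced groups. PRIM2, the large subunit of primase, was lower in siMESH1 and siMESH1+siATF4, and POLD1, the catalytic subunit of polymerase delta, in siMESH1 alone; whether POLD1 differed between the groups is given with the direct comparisons. ORC2, ORC3, ORC4, ORC5, POLD2, RFC1, RPA1 and RPA2 were called in none. On the arrays themselves, 42 genes in siMESH1 had every array below every siNT array, against 20.8% of all genes. In siATF4 there were 41 (18.6% of all genes), and in siMESH1+siATF4 42 (20.2%). With each array centred on the housekeeping genes, which raised the median change of all genes by 0.33, 0.15 and 0.22, 26, 30 and 32 genes were lower and 0 higher, and 0 called genes changed sign. In siMESH1 the calls of CDT1, DBF4, PRIM2, POLD1, POLD3, RFC2, RFC5, RPA3, LIG1 and CHAF1B were lost. CDT1, POLD3 and RPA3 lost theirs in siATF4 and siMESH1+siATF4 as well, and LIG1 in siATF4. The uncalled ORC2, ORC3, ORC4, POLD2 and RPA2 in siMESH1, and ORC2 and ORC5 in siATF4 and siMESH1+siATF4, did change sign. That centring also turned the split of all genes in siMESH1 from 5.37% lower and 2.82% higher to 2.43% lower and 21.1% higher.

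**Figure D2:**
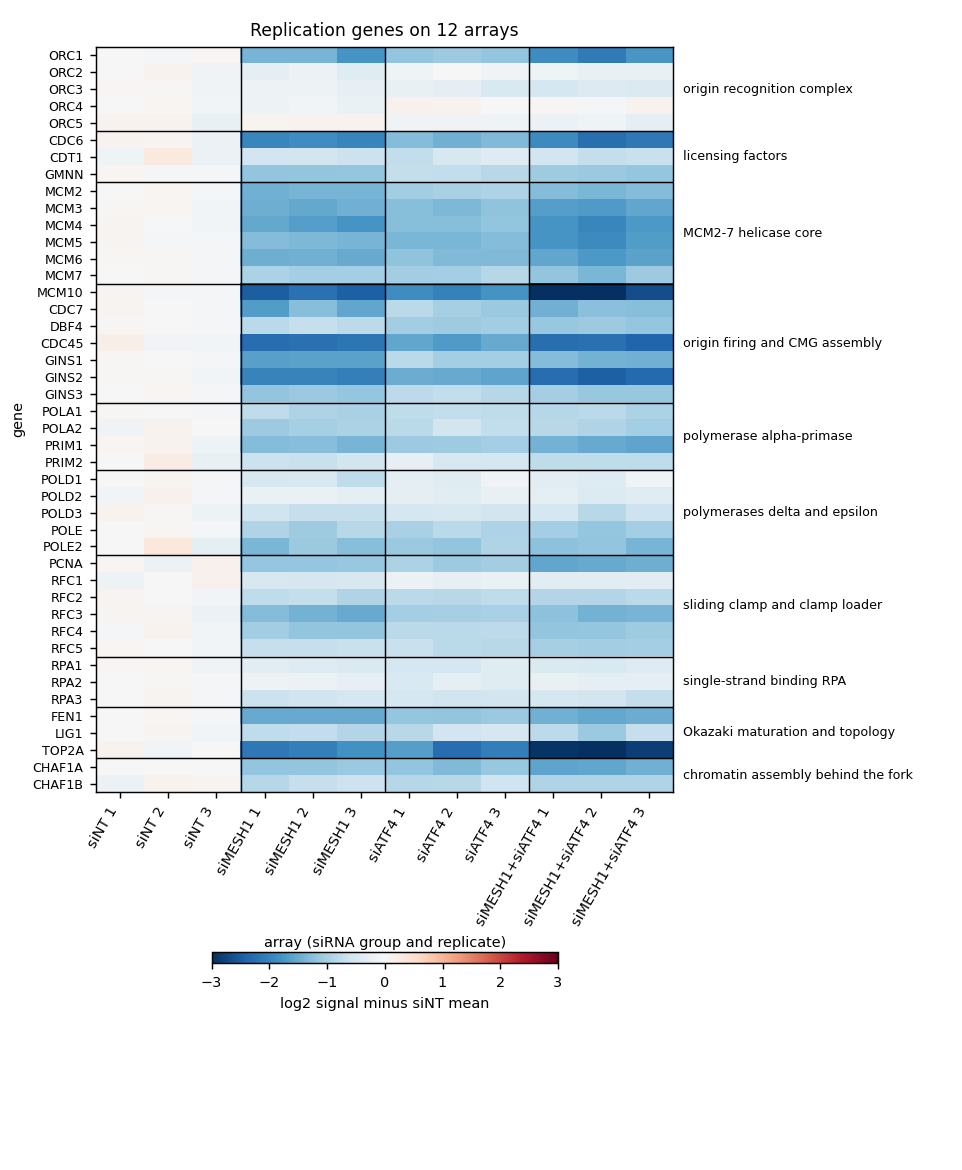
Values of the 44 replication genes on the 12 arrays: colour gives the log2 difference from the siNT mean (scale from -3 to 3, values below -3 shown as -3). Rows are genes by role and columns are arrays by siRNA group. The block of low values runs through the 9 silenced arrays, except for most ORC, RPA1, RPA2, POLD2 and RFC1 rows.

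ORC, which marks origins, showed a sharp contrast between its subunits. ORC1, whose protein is known to come and go with the cell cycle, was -0.022, -0.038 and 0.061 on the siNT arrays, -1.40, -1.39 and -1.77 in siMESH1, -1.19, -1.09 and -1.18 in siATF4 and -1.86, -2.12 and -1.74 in siMESH1+siATF4. No silenced array reached the siNT arrays, and the changes were -1.52 ± 0.11 (SE, adjusted p = 2.2e-07), -1.15 ± 0.11 (SE, adjusted p = 3.8e-06) and -1.91 ± 0.11 (SE, adjusted p = 2.2e-08). The subunits ORC2 to ORC5, which make up the rest of the stable core, were not called in any group, with changes from -0.46 to 0.094. ORC5, with the smallest change, was 0.099, 0.11 and -0.21 in siNT, 0.077, 0.098 and 0.11 in siMESH1, -0.11, -0.10 and -0.12 in siATF4 and -0.17, -0.13 and -0.26 in siMESH1+siATF4. Its siNT arrays spread more widely than any silenced group and overlapped with each of them. ORC3 had the lowest value of these subunits, -0.46 ± 0.068 (SE, adjusted p = 0.00016) in siMESH1+siATF4, which passed the test and stayed under the fold minimum. Without siNT replicate 3 it was -0.50 and called. For ORC2 the changes were -0.27, -0.083 and -0.19 in siMESH1, siATF4 and siMESH1+siATF4, and for ORC4 they were -0.14, 0.074 and 0.035. ORC1 was not the only ORC gene that fell. ORC6, a subunit outside this gene set, was called lower in each silenced group, at -1.58, -1.45 and -1.86 in the same order. With housekeeping centring ORC6 stayed called, at -1.25, -1.31 and -1.64.

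All 3 licensing genes fell in every silenced group. CDC6, the ATPase that works with ORC to load MCM2-7, was 0.11, 0.072 and -0.18 in siNT and -1.96, -1.87 and -1.99 in siMESH1. It was -1.29, -1.45 and -1.31 in siATF4 and -1.92, -2.27 and -2.15 in siMESH1+siATF4. The siATF4 arrays were the highest of the silenced ones, and none came near siNT; the changes were -1.94 ± 0.094 (SE, adjusted p = 8e-09), -1.35 ± 0.094 (SE, adjusted p = 3.4e-07) and -2.11 ± 0.094 (SE, adjusted p = 2.8e-09). CDT1, its partner in loading, moved least: -0.12, 0.30 and -0.18 in siNT, -0.58, -0.54 and -0.65 in siMESH1, -0.74, -0.48 and -0.40 in siATF4 and -0.57, -0.70 and -0.66 in siMESH1+siATF4. The groups did not overlap with siNT, but 1 siNT array stood high, and the change in siMESH1, -0.59 ± 0.12 (SE, adjusted p = 0.0014), was -0.26 with housekeeping centring. Without siNT replicate 2 the CDT1 change in siMESH1 was -0.44, under the fold minimum, and its changes in siATF4 and siMESH1+siATF4 were -0.39 and -0.50, also under it. Without siATF4 replicate 1 its change in siATF4 was -0.44. GMNN, which encodes the inhibitor of CDT1, fell by 1.18, 0.76 and 1.11.

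The 6 subunits of the MCM2-7 ring fell together, with medians of -1.44, -1.27 and -1.64 in siMESH1, siATF4 and siMESH1+siATF4. MCM4, with the largest change, was 0.075, 0.010 and -0.085 in siNT, -1.54, -1.65 and -1.78 in siMESH1, -1.28, -1.29 and -1.19 in siATF4 and -1.77, -1.95 and -1.72 in siMESH1+siATF4. Every silenced array was over 1 log2 unit below siNT, at changes of -1.66 ± 0.075 (SE, adjusted p = 4.6e-09), -1.25 ± 0.075 (SE, adjusted p = 9.6e-08) and -1.81 ± 0.075 (SE, adjusted p = 1.5e-09). MCM7, with the smallest, was 0.015, 0.031 and -0.046 in siNT, -0.96, -1.02 and -1.03 in siMESH1, -1.04, -1.02 and -0.85 in siATF4 and -1.18, -1.37 and -1.10 in siMESH1+siATF4. Its silenced groups lay close to each other and far from siNT. MCM2, MCM3, MCM5 and MCM6 fell by 1.41, 1.47, 1.35 and 1.47 in siMESH1, so that the 6 changes ran from -1.66 to -1.0 there and from -1.35 to -0.97 in siATF4.

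The factors that turn the ring into a helicase held 3 of the 5 largest falls among the 44 genes in siMESH1 (MCM10, CDC45 and GINS2, with TOP2A and CDC6 the others). MCM10, which helps open the origin, was 0.077, -0.030 and -0.047 in siNT, -2.47, -2.23 and -2.44 in siMESH1, -1.88, -2.04 and -1.78 in siATF4 and -2.98, -3.23 and -2.66 in siMESH1+siATF4. The groups stood in 4 separate ranges, siMESH1+siATF4 lowest, and the change in siMESH1, -2.38 ± 0.12 (SE, adjusted p = 1.2e-08), was 5.20-fold. DBF4, the activator of CDC7, had the smallest change in siMESH1: 0.039, 0.010 and -0.048 in siNT, -0.81, -0.70 and -0.79 in siMESH1, -1.04, -1.07 and -1.04 in siATF4 and -1.15, -1.09 and -1.15 in siMESH1+siATF4. Here siMESH1 was the highest of the silenced groups, with no overlap. CDC45, a part of the active helicase, fell by 2.24, 1.59 and 2.29 in siMESH1, siATF4 and siMESH1+siATF4. The GINS genes fell too, GINS2 by 2.02, GINS1 by 1.61 and GINS3 by 1.15 in siMESH1, and the kinase CDC7 by 1.51.

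**Figure D3:**
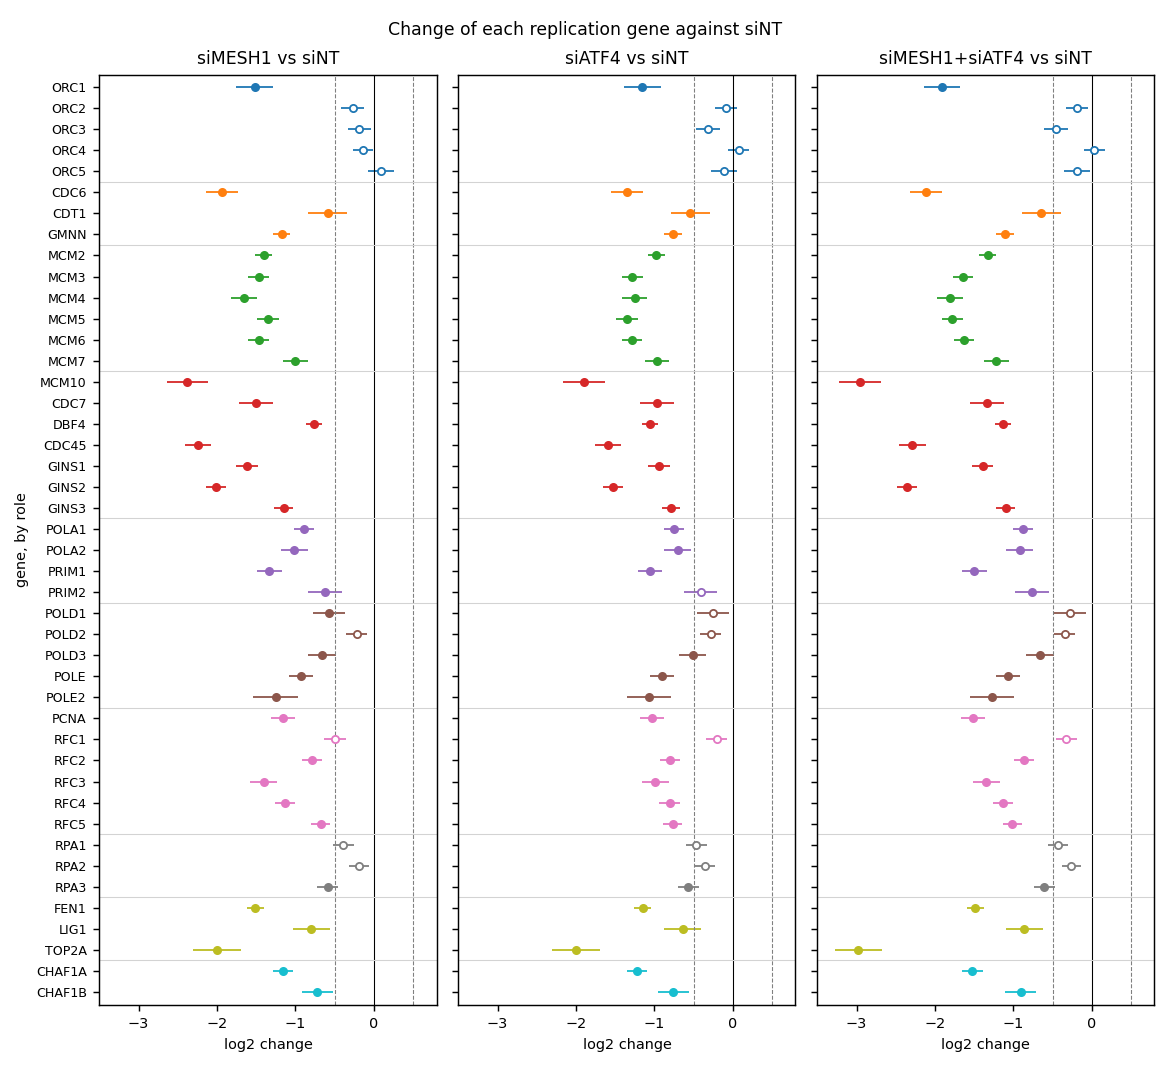
Change of each of the 44 genes against siNT on the log2 scale, 1 panel per silenced group, with 95% intervals of the fit. Filled points were called, open points were not, dashed lines mark a change of 0.5 and colours mark roles. Filled points are all on the lower side, 36, 34 and 35 of 44, and the open ones include ORC2 to ORC5, RPA1 and RPA2 in every panel.

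Of the polymerase genes, those of polymerase alpha-primase, which makes the primers, were lower in siMESH1 in 4 of 4. PRIM1, the catalytic primase subunit, was 0.066, 0.098 and -0.16 in siNT, -1.31, -1.29 and -1.40 in siMESH1, -1.09, -1.06 and -1.01 in siATF4 and -1.41, -1.50 and -1.58 in siMESH1+siATF4. It fell by 1.33, 1.05 and 1.50, with no overlap with siNT. PRIM2 was 0.014, 0.21 and -0.23, -0.65, -0.67 and -0.55, -0.24, -0.47 and -0.52 and -0.77, -0.77 and -0.75 in the same order of groups. One siATF4 array of PRIM2 lay just under the lowest siNT array, and its change there, -0.41 ± 0.099 (SE, adjusted p = 0.0071), stayed under the fold minimum; without siNT replicate 3 it was -0.52 and called. POLA1 and POLA2, the polymerase subunits, fell by 0.89 and 1.01 in siMESH1.

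Polymerase epsilon extends the leading strand and polymerase delta the lagging one. POLE and POLE2 of epsilon had lower values than POLD1, POLD2 and POLD3 of delta, a difference that was not tested. This did not extend to POLE3, an epsilon subunit outside this gene set. POLE3 was at -0.24, -0.49 and -0.50 in siMESH1, siATF4 and siMESH1+siATF4, less low than POLD3 in each. POLD4, a delta subunit also outside the set, was at -0.17, 0.013 and 0.0068 in that order. POLE2, an accessory subunit of epsilon, was -0.020, 0.31 and -0.29 in siNT, -1.37, -1.11 and -1.27 in siMESH1, -1.12, -1.18 and -0.90 in siATF4 and -1.24, -1.18 and -1.39 in siMESH1+siATF4. The siNT arrays of POLE2 were wide apart, yet no silenced array reached them, and it fell by 1.25, 1.07 and 1.27, beside 0.93, 0.90 and 1.07 for the catalytic POLE. POLD2, an accessory subunit of delta, was -0.089, 0.12 and -0.029 in siNT, -0.19, -0.20 and -0.27 in siMESH1, -0.29, -0.31 and -0.23 in siATF4 and -0.26, -0.41 and -0.36 in siMESH1+siATF4. Its arrays were below siNT throughout, at -0.22, -0.28 and -0.35, all under the fold minimum. POLD3, a further delta subunit, fell by 0.66, 0.51 and 0.66. Its call in siATF4 was lost without siNT replicate 1 (-0.46), siNT replicate 2 (-0.497) or siATF4 replicate 3 (-0.499), and with housekeeping centring its changes were -0.33, -0.37 and -0.44, all under the fold minimum. POLD1 was -0.57 ± 0.093 (SE, adjusted p = 0.00037) in siMESH1, and without siMESH1 replicate 3 it was -0.47 and no longer called; in siATF4 and siMESH1+siATF4 it was -0.25 and -0.27.

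PCNA, the clamp that holds polymerases on DNA, fell by 1.16, 1.04 and 1.52 in siMESH1, siATF4 and siMESH1+siATF4. Of its loader RFC, RFC3 moved most: 0.076, 0.090 and -0.17 in siNT, -1.29, -1.41 and -1.52 in siMESH1, -1.01, -0.99 and -0.96 in siATF4 and -1.24, -1.42 and -1.39 in siMESH1+siATF4. The large subunit RFC1 moved least: -0.15, 0.023 and 0.13 in siNT, -0.49, -0.50 and -0.49 in siMESH1, -0.18, -0.24 and -0.19 in siATF4 and -0.33, -0.32 and -0.32 in siMESH1+siATF4. Every silenced array of both lay below siNT, by little for RFC1 in siATF4. RFC1 in siMESH1, -0.49 ± 0.062 (SE, adjusted p = 4.7e-05), passed the test with a change just too small for a call. Centring each array on its own median took it to -0.52, past the fold minimum, and so did leaving out siNT replicate 1 (-0.57). Taking the median of the RFC1 probe sets, or the most variable of them, gave -0.66 each, also called. RFC2, RFC4 and RFC5, the other small subunits, fell by 0.79, 1.13 and 0.68 in siMESH1 and by 0.87, 1.13 and 1.02 in siMESH1+siATF4.

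Of the 3 subunits of RPA, which coats single-stranded DNA, only RPA3 was called. RPA3 was -0.014, 0.078 and -0.064 in siNT, -0.63, -0.60 and -0.53 in siMESH1, -0.54, -0.60 and -0.56 in siATF4 and -0.52, -0.56 and -0.72 in siMESH1+siATF4. RPA3 fell in all 3 silenced groups, with no overlap with siNT, but with housekeeping centring its changes were -0.26, -0.42 and -0.38 and none was called. RPA2, with the smallest change, was 0.017, 0.044 and -0.061, -0.14, -0.19 and -0.24, -0.45, -0.26 and -0.36 and -0.22, -0.28 and -0.28 in that order. RPA2 and RPA1 were the 2 genes of the 44 with their lowest group mean in siATF4, RPA1 at -0.39, -0.46 and -0.43 in siMESH1, siATF4 and siMESH1+siATF4, and in both the silenced arrays lay below siNT. RPA1 in siATF4 was called without siNT replicate 3 (-0.52) or siATF4 replicate 3 (-0.51).

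TOP2A, which untangles copied DNA and is known to rise late in the cell cycle, was 0.099, -0.091 and -0.008 in siNT, -2.14, -2.04 and -1.82 in siMESH1, -1.65, -2.28 and -2.07 in siATF4 and -2.94, -3.16 and -2.83 in siMESH1+siATF4. The single silencings overlapped with each other and the double silencing lay below both, at -2.98 ± 0.14 (SE, adjusted p = 4.3e-09). LIG1, the ligase of Okazaki fragments, was -0.008, 0.084 and -0.076 in siNT, -0.76, -0.75 and -0.88 in siMESH1, -0.84, -0.56 and -0.51 in siATF4 and -0.78, -1.11 and -0.69 in siMESH1+siATF4. Its silenced groups overlapped with each other but not with siNT. FEN1, the flap nuclease, fell by 1.51, 1.15 and 1.48. Of CAF-1, the chaperone that places histones behind the fork, CHAF1A was 0.015, -0.018 and 0.002 in siNT, -1.18, -1.18 and -1.10 in siMESH1, -1.19, -1.33 and -1.14 in siATF4 and -1.58, -1.55 and -1.43 in siMESH1+siATF4. CHAF1B was -0.19, 0.11 and 0.080, -0.85, -0.68 and -0.63, -0.86, -0.83 and -0.59 and -0.91, -0.90 and -0.91 in the same order. Both fell in all 3 silenced groups, CHAF1A by 1.15, 1.22 and 1.52 and CHAF1B by 0.72, 0.76 and 0.91. With housekeeping centring CHAF1B was at -0.39 in siMESH1, under the fold minimum. LIG1 was then at -0.47 in siMESH1 and -0.49 in siATF4, also under it.

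Probe sets of the same gene mostly moved together. Of the 15 genes with several probe sets, 3 had probe sets of different sign in a silenced group: ORC4, ORC5 and RFC5. For RFC5 2 probe sets fell by 1.13 and 1.04 in siMESH1 and the third stood at 0.13, so the mean of -0.68 understates those 2. In siMESH1+siATF4 the 3 RFC5 probe sets were at -1.48, -1.35 and -0.22. The RFC1 probe sets were at -0.67, -0.66 and -0.16 in siMESH1. For ORC4 they were at 0.013 and -0.29, and for ORC5 at -0.079, 0.29 and 0.069. All 4 probe sets of MCM4 lay between -1.88 and -1.38 in siMESH1, and both of TOP2A between -3.03 and -2.92 in siMESH1+siATF4.

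**Figure D4:**
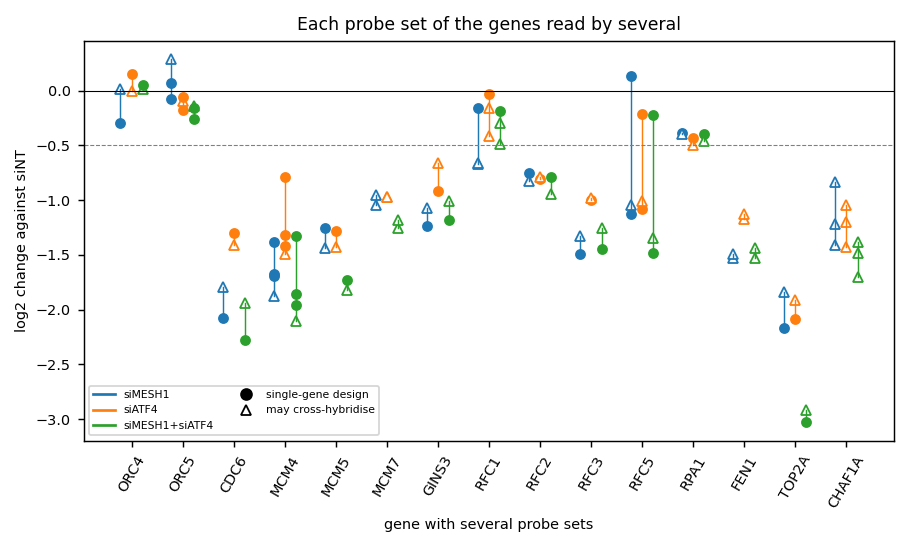
Change against siNT on the log2 scale of each probe set of the 15 replication genes read by several, in siMESH1, siATF4 and siMESH1+siATF4. Each point is the mean of 3 arrays minus the siNT mean, triangles mark probe sets whose design may cross-hybridise, and lines join the lowest and highest probe set of a gene. RFC5 has 1 probe set apart from the others in every group (0.13, -0.21 and -0.22).

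The next question was what silencing of either gene added to silencing of the other. Against siMESH1, siMESH1+siATF4 had 2 of the 44 genes lower and 0 higher, where 2.68% of all genes were lower and 3.42% higher. These were TOP2A, -0.97 ± 0.14 (SE, adjusted p = 0.00019), and MCM10, -0.58 ± 0.12 (SE, adjusted p = 0.0029); without siMESH1+siATF4 replicate 2 only TOP2A remained called. The median change of the 44 genes was -0.074, and -0.18 with housekeeping centring, which also called MCM5, at -0.54, and turned the sign of 9 uncalled genes, MCM2 and FEN1 among them. For CDC45 the difference was -0.049 (95% interval -0.22 to 0.12), for MCM2 0.080 (-0.028 to 0.19), for FEN1 0.026 (-0.082 to 0.13), and for PCNA -0.36 (-0.52 to -0.21), which passed the test under the fold minimum.

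Against siATF4, siMESH1+siATF4 had 7 genes lower and 0 higher, where 1.28% of all genes were lower and 0.351% higher, and the median was -0.28. They were MCM10, -1.06 ± 0.12 (SE, adjusted p = 0.00013), TOP2A at -0.98, GINS2 at -0.82, CDC6 and ORC1 each at -0.76, CDC45 at -0.70 and MCM4 at -0.56. MCM4 was the 1 called of the 6 MCM2-7 genes, and it was not called with housekeeping centring (-0.49) or without siMESH1+siATF4 replicate 2 (-0.49). A further 17 passed the adjusted p without the fold minimum, so that 24 did so on the lower side and 0 on the higher side. RPA1 and RPA2 were at 0.036 and 0.094 here.

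In the direct comparison of the single silencings, siMESH1 had 4 genes lower than siATF4 and 0 higher, where 4.75% of all genes were lower and 3.91% higher. GINS1 was at -0.68 ± 0.063 (SE, adjusted p = 3.2e-06), CDC45 at -0.65, CDC6 at -0.58 and CDC7 at -0.54. CDC7 was not called without siMESH1 replicate 1 (-0.45) or siATF4 replicate 1 (-0.46). None of the 4 was called with housekeeping centring, which moved the median difference of all genes by 0.18 and that of the 44 genes from -0.19 to -0.0027. MCM5 differed by 0.0062 (95% interval -0.13 to 0.14), TOP2A by -0.0028 (-0.31 to 0.30) and RFC2 by 0.0075 (-0.12 to 0.13). DBF4 was on the other side, at 0.29 (0.18 to 0.39), under the fold minimum. POLD1, called in siMESH1 but not in siATF4, differed by -0.32 ± 0.093 (SE, adjusted p = 0.018), also under it, and PRIM2 by -0.22 (adjusted p = 0.12).

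The double silencing fell short of the sum of the single ones on the log2 scale. Each transfection used 40 pmol of siRNA, and how this was shared between both siRNAs in siMESH1+siATF4 is not given in the sources used here, so a smaller dose of each cannot be told apart from an effect of silencing both. ATF4 was as low in siMESH1+siATF4 as in siATF4, while HDDC3 had 0 probe sets of its own symbol. The interaction compares the change from siATF4 to siMESH1+siATF4 with the change from siNT to siMESH1, and a value above 0 means that the first fell less. It was called above 0 in 33 of the 44 genes and below 0 in 0, where 3.46% of all genes were called above 0 and 0.853% below. Its median over the 44 genes was 0.77, against -0.021 over all genes. It was largest for CDC45, 1.54 ± 0.11 (SE, adjusted p = 5.1e-06). MCM10 followed at 1.32, GINS2 at 1.19, CDC6 and FEN1 at 1.18, GINS1 at 1.16, CDC7 at 1.14, MCM6 at 1.13, MCM3 at 1.11 and MCM4 at 1.10. All 6 subunits of MCM2-7 and all 7 firing factors were called. Of the ORC genes among the 44 only ORC1 was called, at 0.76. ORC6, a subunit outside the 44, was called at 1.17. With housekeeping centring, which moved the median of all genes by -0.26, 24 were called above 0 and 0 below. MCM7 (0.496) and DBF4 (0.43) were among those no longer called, and the split of all genes turned to 1.64% above 0 and 10.5% below.

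On the log2 scale the 34 genes lower in every silenced group reached a median of 59.4% of the summed single changes in siMESH1+siATF4. The lowest share was 52.2% for RPA3 and the highest 74.4% for TOP2A. By group means, 28 genes were lowest in siMESH1+siATF4, 14 in siMESH1 and 2 in siATF4. A gene whose single silencings were -2.24 and -1.59, as for CDC45, stood at -2.29 after both. The array offers no level to say how near the background signal such a gene came.

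**Figure D5:**
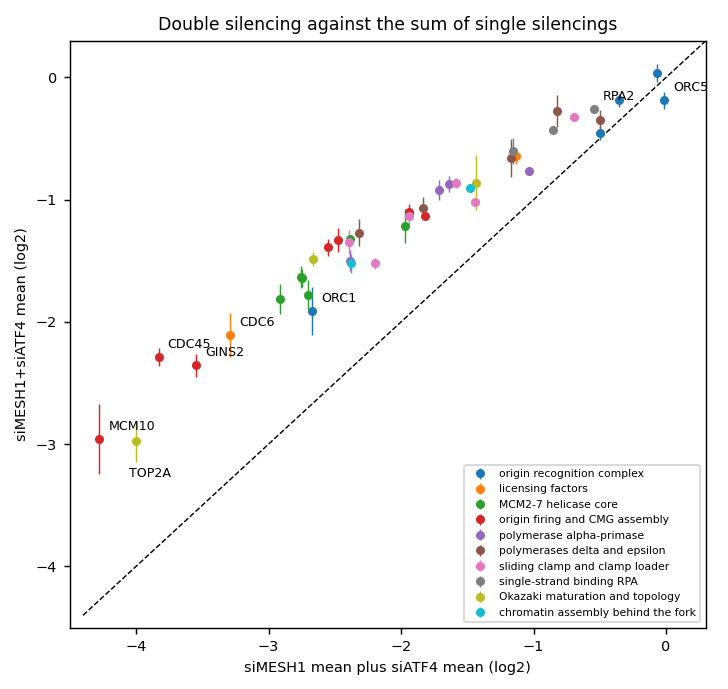
Mean log2 change in siMESH1+siATF4 (y axis, bars are the SD of 3 arrays) against the sum of the siMESH1 and siATF4 mean changes (x axis) for each of the 44 genes, coloured by role. The dashed line marks equality. Most points lie above the line, by 1.54 for CDC45, while ORC5 lies at -0.19 against a sum near 0.

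Of 33 measured replication genes outside the 44, such as helper factors, fork protection and chromatin genes, 19 were lower and 0 higher in siMESH1 (5.37% and 2.82% of all genes). In siATF4 17 were lower and 0 higher (4.03% and 2.49%), and in siMESH1+siATF4 21 and 0 (5.25% and 4.40%). The topoisomerase genes TOP1 and TOP2B were at 0.36 and 0.24 in siMESH1, under the fold minimum. With housekeeping centring 13 of the 33 were lower in siMESH1 and these 2 were higher, at 0.69 and 0.57. The 6 with the smallest adjusted p in siMESH1 were ASF1B, a histone chaperone, at -1.64, CCNE2, a cyclin of S phase entry, at -1.77, DTL, which directs the destruction of CDT1, at -2.35, RNASEH2A, a nuclease of RNA in DNA, at -1.17, DNMT1, the maintenance DNA methyltransferase, at -1.24, and NASP, a histone chaperone, at -1.08. The interaction was called above 0 in 17 of the 33 and below 0 in 0 (3.46% and 0.853% of all genes); with housekeeping centring these were 11 and 1, the latter TOP1 at -0.52.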

How the data were processed

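RNA of 12 RCC4 cultures was measured on Affymetrix arrays. The deposited log2 values were made by the authors with RMA in Affymetrix Expression Console (versions not given in the sources used here) and expressed relative to the siNT mean of each probe set, which lay within 0.00012 of 0. Groups and replicates came from the labels, all columns had a sample, and 0 pairs of arrays were identical. Of 22277 probe sets, 19064 had 1 symbol and were averaged to 11963 genes, with no filter on level. Another 2 probe sets shared by PRIM2 and a pseudogene were left out. All 12 arrays entered 1 limma 3.58.1 fit (lmFit, eBayes, R 4.3.3) with a mean per group, 8 residual and 4.32 prior degrees of freedom, and Benjamini-Hochberg adjustment over all genes for each of 7 comparisons. Standard errors are those of the fit, and 3 arrays per group limit the precision. P-values measure the spread between these cultures. The fit was tested on simulated data. Promoter windows came from RefSeq tables and were searched with Python 3.11.15. The genes and lists were chosen with earlier results of these data known. Within each role, the genes with the largest and smallest change in siMESH1 are given array by array. Further genes are named when called between silenced groups or in the interaction (at most 10 each by size), when called in no silenced group, or when their probe sets differ in sign, along with the 6 other replication genes with the smallest adjusted p. Values of remaining genes complete their role. Alternatives changed the scaling, the probe sets, the block, the groups fitted, the test, the fold minimum and the replicates.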

Additional observations from a re-analysis of the deposited data

Results flagged for a closer look

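For 33 of the 44 replication genes the change after MESH1 silencing differed between cells with and without ATF4 silencing, by the test of that difference (limma, adjusted p under 0.05 with at least 0.5 on the log2 scale). Each difference was above 0, so the further fall in siMESH1+siATF4 against siATF4 was smaller than the fall in siMESH1 against siNT. Among all genes tested 3.46% were called on that side, a share that also covers genes lowered by neither siRNA. The limits given in the Results hold here too: how the siRNA dose was shared, and how near background these genes came, is not known.

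Of the factors that fire origins, CDC45 stood at 1.54, MCM10 at 1.32, GINS2 at 1.19, GINS1 at 1.16, CDC7 at 1.14, GINS3 at 0.841 and DBF4 at 0.690. Of the helicase ring, MCM6 stood at 1.13, MCM3 at 1.11, MCM4 at 1.10, MCM2 at 1.06, MCM5 at 0.924 and MCM7 at 0.753. Of origin recognition and licensing, CDC6 stood at 1.18, GMNN at 0.830 and ORC1 at 0.764.

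Of the polymerases, POLE2 stood at 1.05, PRIM1 at 0.890, POLA2 at 0.798, POLE at 0.767, POLA1 at 0.763, POLD1 at 0.548 and POLD3 at 0.514. Of clamp and loader, RFC3 stood at 1.05, RFC4 at 0.806, RFC2 at 0.724 and PCNA at 0.672. The others were FEN1 at 1.18, TOP2A at 1.03, CHAF1A at 0.856, LIG1 at 0.575, CHAF1B at 0.573 and RPA3 at 0.552. LIG1, POLD3 and POLD1 were the 3 that lost the call when 1 array was left out, in 6, 5 and 3 of the 12 fits. LIG1, at an adjusted p of 0.029, was at 0.056 to 0.071 in those fits, POLD3 at 0.445 to 0.498 on the log2 scale and POLD1 at 0.450 to 0.497, both under the fold minimum. LIG1 lost it without siNT replicates 1 and 2, siMESH1 replicate 3, siATF4 replicate 1 and siMESH1+siATF4 replicates 1 and 3. POLD3 lost it without the same arrays except the siATF4 one. POLD1 lost it without siMESH1 replicate 3, siATF4 replicate 2 and siMESH1+siATF4 replicate 3. Housekeeping centring left 24 called. MCM7, DBF4, POLD1, POLD3, PCNA, RFC2, RPA3, LIG1 and CHAF1B were then no longer called, at 0.257 (POLD3) to 0.496 (MCM7).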

How the results depend on the processing

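In the order siMESH1, siATF4 and siMESH1+siATF4 against siNT, siMESH1+siATF4 against siMESH1 and against siATF4, siMESH1 against siATF4, and the interaction, 36, 34, 35, 2, 7, 4 and 33 of the 44 genes were called. The other replication genes numbered 19, 17, 21, 3, 4, 5 and 17. No called gene of the 44 changed sign under any alternative run. Median and robust settings, the most variable probe set, array median centring and a fit of only the compared groups (not for the interaction, for which the methods' t-test was not run either) left every one of these counts within 1.5 times.

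Housekeeping centring left 0 of the 44 called in siMESH1 against siATF4, and gave 5, 2 and 3 other replication genes in siMESH1+siATF4 against siMESH1 and siATF4 and in siMESH1 against siATF4; the cause was not tested. Leaving out probe sets that may cross-hybridise made only 31 of the 44 and 25 of the others testable: 22 and 23 genes were called in siATF4 and siMESH1+siATF4 against siNT, 1 and 4 in siMESH1+siATF4 against siMESH1 and siATF4, with 1 other gene in the former and 2 in siMESH1 against siATF4. The methods' t-test after Benjamini-Hochberg adjustment called 1 and 3 in siMESH1+siATF4 against siMESH1 and siATF4; unadjusted it called 2 and 7.

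A fold minimum of 1 on the log2 scale, stricter by construction, left 23, 16, 0, 1, 0 and 14 genes in siMESH1 and siATF4 against siNT, siMESH1+siATF4 against siMESH1 and siATF4, siMESH1 against siATF4 and the interaction, and 8, 6, 10, 0, 1, 0 and 4 others in all 7 comparisons. With no fold minimum, 15, 24 and 24 genes were called in the comparisons between silenced groups, and 27 others in siATF4 against siNT and 13, 8 and 11 between silenced groups.

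Leaving out 1 array at a time gave 35 to 37, 32 to 36, 34 to 36, 1 to 3, 6 to 8, 3 to 5 and 30 to 34 genes, and 19 to 20, 16 to 19, 19 to 22, 2 to 4, 2 to 5, 5 and 15 to 18 others. The lowest counts in siMESH1+siATF4, 1 gene against siMESH1 and 2 others against siATF4, came without siMESH1+siATF4 replicates 2 and 3. As a replicate block, the numbers changed 1 count, the interaction, to 32 genes (LIG1 at an adjusted p of 0.052). Same-numbered arrays correlated at -0.19 to 0.095, none of 18 pairs above 0.1, and 2 of 12 arrays correlated best with their own number, so the numbers were not taken as pairs.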
